A study of Mus musculus with 6 samples.

Results

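The 50 genes described here encode mitotic proteins of the mouse: cyclins and the CDK1 regulators, the spindle checkpoint, the chromosomal passenger complex, centromere and kinetochore proteins, mitotic kinesins, proteins of the spindle and of cytokinesis, and 2 proteins of the mitotic chromosome. They were chosen by name from 54532 genes listed in the count files, and all 50 had at least 10 reads summed over the 6 libraries, as did 19452 genes in all. Poly(A)+ RNA was sequenced from 3T3 cells, a mouse fibroblast line, in 3 control libraries and 3 libraries labelled triple KD (called SAFB KD here). By the study's methods the SAFB KD cells received siRNAs against Safb1, Safb2 and Sltm together and the control cells a control siRNA, with a repeat transfection after a day and harvest on the third day. Both groups were cultures of the same Flp-In derivative of the line, so that the results concern 1 cell line and a knockdown, not a deletion.

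Mitosis is driven by CDK1 bound to cyclin A or B, while Polo-like and Aurora kinases build the spindle and the kinetochore links chromosomes to its microtubules. The spindle checkpoint holds the APC/C ubiquitin ligase inactive until every chromosome is attached, after which cyclin B and securin are destroyed and the cell divides. Most of the genes are transcribed only late in the cell cycle, so that their summed RNA is commonly read as a measure of proliferation. In bulk RNA, fewer cells in G2 and mitosis and less RNA in each such cell cannot be told apart.

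The libraries held 33323307 to 53441129 counts. Safb, Safb2 and Sltm were all lower in SAFB KD, by 1.01, 0.64 and 0.70 on the log2 scale. The 9 fibroblast markers summed to 18830 to 20748 CPM (reads of a gene scaled to a common library size) in the control and 17447 to 17916 CPM in SAFB KD. Of the 9, 7 were lower at adjusted p under 0.05, beside 20.1% of all tested genes. Tested against a change of 1.2-fold, 4 were lower, beside 7.88% of all tested genes. Their log2 fold changes ran from -1.36 to 0.03, with a median of -0.32. The 12 markers of other cell types summed to only 12.6 to 14.3 CPM, with 3 of them at 0 in all libraries.

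A shared feature of the genes that their choice did not use lies in their promoters. The TTTGAA element (cell cycle genes homology region) and the CCAAT box, bound by NF-Y, are the textbook elements of late cell cycle promoters, and the first is contacted by the MuvB complexes that repress these genes in resting cells and activate them before mitosis. RefSeq promoters, 250 bases before to 50 bases after the start, were found for 42 of the 50 genes. A gene with several promoters was counted if any of them held the motif. TTTGAA, searched on both strands, was present in 30 of the 42 genes (71.4%), against 14.7% of 10483 tested coding genes and 20.2% of all 27025 genes with a promoter. CCAAT on either strand was also present in 30 of the 42 (71.4%), against 43.4% of the coding genes, and no TTTGAA overlapped a CCAAT. With TTTAAA counted as a second form of the element, 34 genes (81.0%) held it and 27 (64.3%) held it with a CCAAT, compared with 23.1% and 11.1% of coding genes. An E2F-like motif was searched as TTCCCGCC, TTTCCCGC, TTTGGCGC or TTCGCGCC on either strand, of which the first pair overlap. It was found in 4.76% of the 42 genes and 7.64% of coding genes. Of these 42 genes, TTTGAA was present in 9 of 13 that rose in SAFB KD, 9 of 10 that fell and 12 of 19 that did not pass the test. A match describes these letters in this window and not a bound site.

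In all, 5 promoters are shown (RefSeq, GRCm38.p6), 3 of genes that fell and 2 of genes that rose, because genes with the same elements went in opposite directions. They lie, for Mki67 at chr7:135716330-135716629, minus strand, Cenpf at chr1:189688037-189688336, minus strand, Aspm at chr1:139454523-139454822, plus strand, Aurka at chr2:172370521-172370820, minus strand, and Cdk1 at chr10:69352863-69353162, minus strand. Capitals mark TTTGAA and CCAAT on either strand, and each sequence is written 5′ to 3′ on the strand of its gene.
Mki67: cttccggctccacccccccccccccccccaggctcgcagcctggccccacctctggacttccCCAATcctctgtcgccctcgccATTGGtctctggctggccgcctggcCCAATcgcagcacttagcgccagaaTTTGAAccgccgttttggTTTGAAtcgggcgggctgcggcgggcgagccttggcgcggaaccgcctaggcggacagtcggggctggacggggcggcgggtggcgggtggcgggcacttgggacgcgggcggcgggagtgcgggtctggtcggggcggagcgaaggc
Cenpf: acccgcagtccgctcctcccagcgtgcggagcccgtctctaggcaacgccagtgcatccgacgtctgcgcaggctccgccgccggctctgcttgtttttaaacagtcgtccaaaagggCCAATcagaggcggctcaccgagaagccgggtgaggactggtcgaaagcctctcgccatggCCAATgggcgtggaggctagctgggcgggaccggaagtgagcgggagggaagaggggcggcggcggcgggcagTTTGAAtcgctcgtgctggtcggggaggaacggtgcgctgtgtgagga
Aspm: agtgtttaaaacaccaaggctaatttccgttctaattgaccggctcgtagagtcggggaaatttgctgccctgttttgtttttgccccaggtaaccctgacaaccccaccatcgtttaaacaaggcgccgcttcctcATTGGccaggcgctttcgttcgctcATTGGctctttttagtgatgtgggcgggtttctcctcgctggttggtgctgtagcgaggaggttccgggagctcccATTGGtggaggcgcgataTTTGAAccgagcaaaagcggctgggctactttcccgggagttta
Aurka: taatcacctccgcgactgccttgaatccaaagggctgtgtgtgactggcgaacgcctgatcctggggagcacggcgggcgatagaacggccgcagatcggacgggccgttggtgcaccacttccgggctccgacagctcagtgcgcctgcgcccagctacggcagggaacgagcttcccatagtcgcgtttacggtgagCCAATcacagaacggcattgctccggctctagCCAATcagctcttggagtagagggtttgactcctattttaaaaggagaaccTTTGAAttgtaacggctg
Cdk1: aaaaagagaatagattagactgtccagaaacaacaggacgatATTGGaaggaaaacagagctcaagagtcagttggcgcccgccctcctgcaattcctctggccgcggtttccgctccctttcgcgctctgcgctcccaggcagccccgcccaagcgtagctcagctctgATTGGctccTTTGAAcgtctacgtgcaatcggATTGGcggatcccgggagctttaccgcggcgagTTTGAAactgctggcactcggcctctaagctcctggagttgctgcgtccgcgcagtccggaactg
The Mki67 and Cdk1 promoters each hold 2 copies of TTTGAA and 3 of CCAAT. Mki67 RNA fell in SAFB KD and Cdk1 RNA rose, as described below for each gene.

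The first question was whether the mitotic genes moved together in SAFB KD. They did not: 16 of the 50 were higher (32%), 11 were lower (22%) and 23 did not pass the test (edgeR quasi-likelihood test, Benjamini-Hochberg adjusted p under 0.05 over all 19452 genes). Among all tested genes 21.4% were called higher and 20.1% lower, and among tested coding genes 27.6% and 25.7%. Among the 7777 coding genes within the range of mean CPM of the mitotic genes, 37.2% were called higher and 29.8% lower. In either direction 54% of the mitotic genes were called, beside 41.5% of all tested genes and 67.1% of these coding genes, a contrast that was not tested. The median log2 fold change was 0.054, beside 0.010 for all tested genes and 0.029 for the coding genes of like abundance. Scaling to total counts alone gave 12 higher and 14 lower, with a median of 0.014, while the median of all genes was then -0.030.

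Most of the changes were small. Among the 27 genes called, the median change was 1.13-fold and the largest 1.54-fold. Tested against a change of 1.2-fold, 0 genes were higher and only Mki67 and Cenpf were lower, whereas 6.78% of all tested genes were higher and 7.88% lower by this test. Replicates lay close together (biological coefficient of variation 3.49%), and the libraries of the 2 groups did not overlap for 19 genes with SAFB KD above and 11 with SAFB KD below the control, against 25.3% and 23.7% of all tested genes (49% in either direction). The largest change among the 23 genes not called was 1.10-fold, and the 95% intervals of their log2 fold changes reached from -0.21 to 0.25.

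The summed level of the 50 genes was 7570, 7684 and 7630 CPM in the control libraries and 7450, 7284 and 7426 CPM in the SAFB KD libraries. The sums did not overlap and were lower in SAFB KD, although more single genes rose than fell. Top2a and Mki67, 2 of the genes that fell, supply a large part of the sum. Top2a stood at 1576 CPM in the control and 1452 CPM in SAFB KD, and Mki67 at 597 and 388 CPM. By group means these 2 genes together lost more CPM than the sum of all 50 did. The lower sum thus does not describe the other genes. Per kilobase of transcript, control levels ran from 4.05 CPM for Kif14 to 302 CPM for Top2a, with a median of 31.2 CPM.

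**Figure D1:**
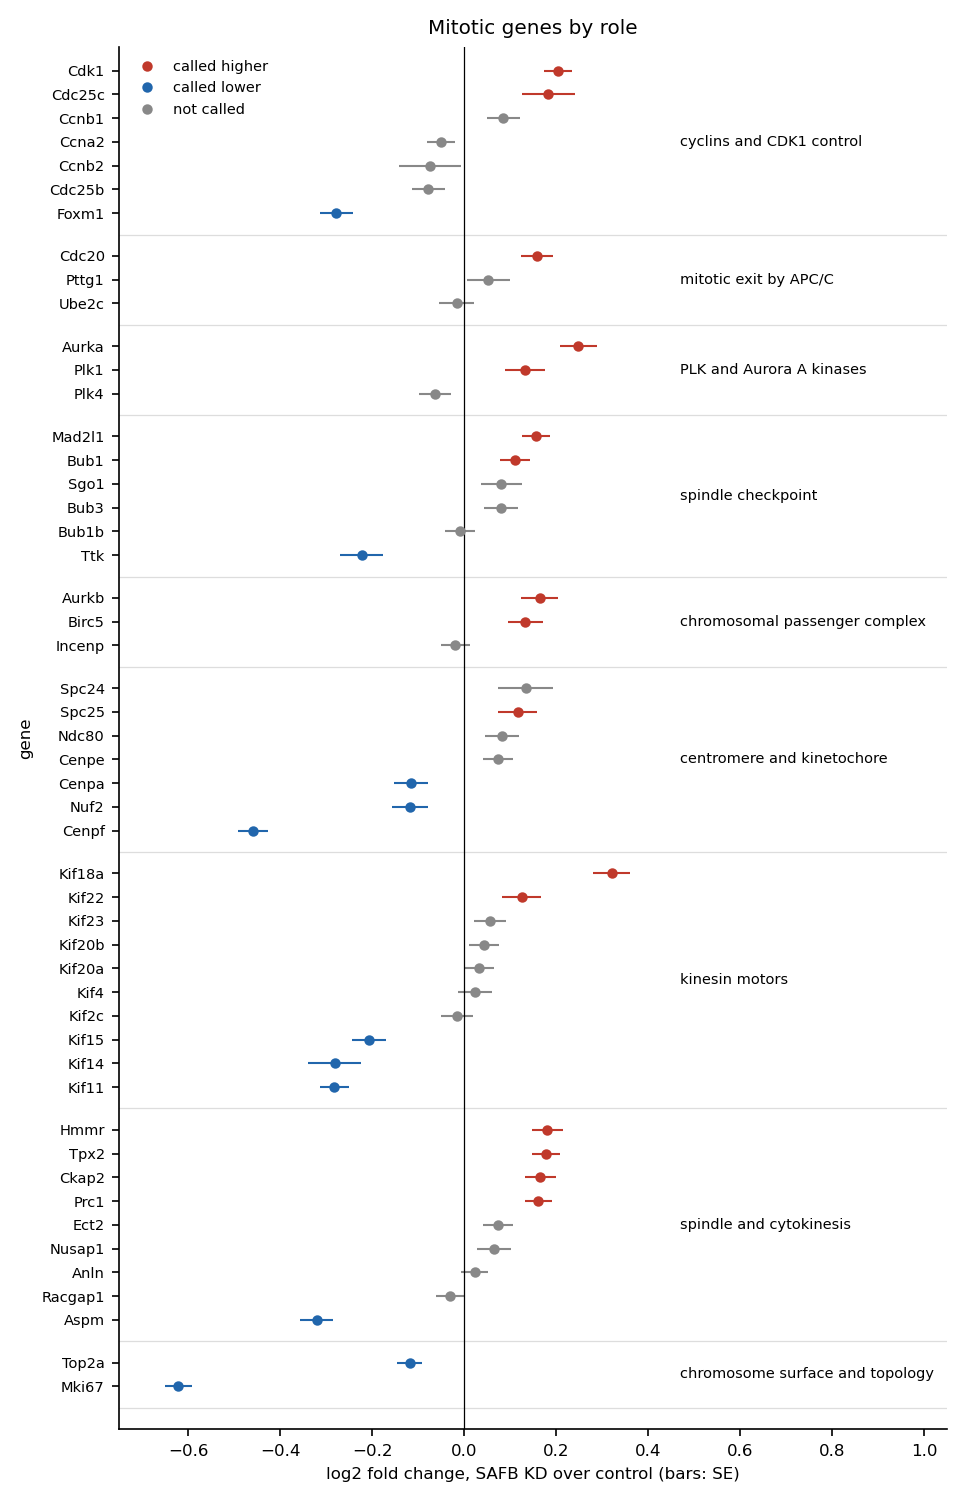
Log2 fold change of SAFB KD over control (x axis, bars are SE, 3 libraries a group) for each of the 50 genes (y axis), grouped by role, with calls at adjusted p under 0.05 in red (higher) and blue (lower). Every group but the last holds genes near 0, and Mki67 (-0.62) and Cenpf (-0.46) lie farthest out.

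Among the cyclins and CDK1 regulators, Cdk1 and Cdc25c rose, Foxm1 fell and 4 genes did not pass the test. Cdk1, the kinase of mitotic entry, was at 149.1, 150.9 and 151.9 CPM in the control and 174.7, 172.0 and 173.8 CPM in SAFB KD. The groups were well apart, and Cdk1 rose by 0.20 (log2; SE 0.031, adjusted p = 5.77e-07). None of its cyclin partners passed the test: log2 fold changes were -0.05 for Ccna2 (adjusted p = 0.194), 0.08 for Ccnb1 (0.0568) and -0.07 for Ccnb2 (0.423). The 95% interval of Ccnb1 was 0.01 to 0.16. Ccnb1 passed as higher without control replicate 2 (0.0342) or with the replicate number as a block (0.0432). Ccna2 passed as lower without control replicate 3 (0.0417) or with total counts alone (0.0181). The phosphatase gene Cdc25c, whose product removes the inhibitory phosphates from CDK1, rose by 0.18 (adjusted p = 0.00962), and this call was lost without control replicate 3 (adjusted p = 0.112). Its paralog Cdc25b was at -0.08 (adjusted p = 0.0770), with all SAFB KD libraries below all controls, and passed as lower with DESeq2 size factors (0.0487), total counts alone (0.00737) or the filterByExpr filter (0.0299).

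Foxm1, the transcription factor that activates many of these genes in G2, fell in every SAFB KD library. Its level was 89.8, 87.7 and 87.6 CPM in the control and 74.3, 73.6 and 71.0 CPM in SAFB KD, a change of -0.28 (SE 0.035, adjusted p = 1.81e-08). In the annotation 144 of the 4652 bases of its longest transcript (3.10%) are shared with another gene on the same strand, whose reads would be left out. Of the other mitotic genes none shares exonic bases with another gene on its strand.

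The PLK and Aurora A kinase genes and the genes of mitotic exit were higher or did not pass the test. Aurka, the kinase of centrosome maturation and spindle assembly, stood at 60.4, 59.1 and 56.4 CPM in the control and 72.6, 70.0 and 66.7 CPM in SAFB KD. All SAFB KD libraries exceeded all controls, and Aurka rose by 0.25 (SE 0.040, adjusted p = 2.3e-06). Its activator and spindle anchor Tpx2 rose by 0.18 (adjusted p = 4.83e-06), from 208 ± 4.39 to 236 ± 0.46 CPM (SD, n = 3). Plk1, which acts from mitotic entry to cytokinesis, rose by 0.13 (adjusted p = 0.0111), a call lost without control replicate 3 (adjusted p = 0.0932) or SAFB KD replicate 3 (0.0813). Plk4, the kinase of centriole duplication, was at -0.06 (adjusted p = 0.159). The APC/C activator Cdc20 rose by 0.16 (adjusted p = 0.000272), while Pttg1 (securin) and the APC/C ubiquitin-conjugating enzyme Ube2c differed by 0.05 and -0.02 and did not pass the test.

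The spindle checkpoint was split. Mad2l1, which encodes the MAD2 inhibitor of CDC20, was at 211.4, 213.7 and 215.8 CPM in the control and 239.1, 231.4 and 244.0 CPM in SAFB KD. It rose by 0.16 (SE 0.031, adjusted p = 4.39e-05), with no overlap between the groups. Bub1, a kinetochore kinase of the checkpoint, rose by 0.11 (adjusted p = 0.00654), which was lost without control replicate 1 (adjusted p = 0.0506) or SAFB KD replicate 3 (0.0760). Ttk, whose product MPS1 starts checkpoint signalling, went the other way, from 46.5, 45.4 and 47.2 CPM to 39.0, 37.8 and 42.1 CPM. Ttk fell by 0.22 (SE 0.047, adjusted p = 0.000117). Bub1b, Bub3 and Sgo1, the protector of centromeric cohesion, differed by -0.01, 0.08 and 0.08 and did not pass, but Bub3 did without control replicate 1 (adjusted p = 0.0129). In the chromosomal passenger complex, the kinase Aurkb rose by 0.16 (adjusted p = 0.000804) and Birc5 (survivin) by 0.13 (adjusted p = 0.00399), whereas the scaffold Incenp was at -0.02 (adjusted p = 0.693).

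At the centromere and kinetochore, 1 gene rose, 3 fell and 3 did not pass the test. Cenpf, a large coiled-coil protein of the outer kinetochore, was at 178.4, 187.0 and 193.2 CPM in the control and 136.1, 136.3 and 133.7 CPM in SAFB KD. The lowest control exceeded the highest SAFB KD library by far, and Cenpf fell by 0.46 (SE 0.033, adjusted p = 5.03e-15; beyond 1.2-fold, adjusted p = 7.75e-07). Cenpe, a kinetochore motor also encoded by a long mRNA, was at 237.0, 252.6 and 253.9 CPM in the control and 271.8, 257.5 and 253.7 CPM in SAFB KD. These groups overlapped, and the difference of 0.07 (95% interval 0.01 to 0.14) missed the threshold (adjusted p = 0.0658). Cenpe passed as higher with no filter on low counts (0.0438) or with the replicate number as a block (0.0446). The ratio of Cenpf to Cenpe was 0.752, 0.740 and 0.761 in the control libraries and 0.501, 0.529 and 0.527 in SAFB KD, chosen with the fold changes known and given without a test.

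The NDC80 complex, which binds microtubule ends, did not move as a unit. Its subunit Nuf2 fell by 0.12 (adjusted p = 0.0132) and Spc25 rose by 0.12 (adjusted p = 0.0257), both with overlapping libraries, and Ndc80 and Spc24 were at 0.08 and 0.13 without passing, except Spc24 without SAFB KD replicate 1 (adjusted p = 0.0247). Neither call was firm. Nuf2 missed the threshold without control replicate 3 (adjusted p = 0.0775) or SAFB KD replicate 2 (0.0830), and Spc25 without control replicate 1 (0.265), control replicate 2 (0.105) or SAFB KD replicate 3 (0.234). Spc25 also missed it with DESeq2 (0.0815) or total counts alone (0.156). The centromeric histone gene Cenpa fell by 0.11 (adjusted p = 0.00974), but not without SAFB KD replicate 1 (0.0552) or replicate 2 (0.0540).

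The 10 kinesins, motors that move along microtubules, held the largest rise of the 50 genes and several of the clearer falls. Kif18a, which dampens chromosome movements at the metaphase plate, was at 59.6, 66.1 and 67.0 CPM in the control and 78.8, 81.7 and 79.8 CPM in SAFB KD. It rose by 0.32 (SE 0.040, adjusted p = 1.16e-08), or 1.25-fold. Kif11, the motor that pushes the spindle poles apart, was at 235.5, 250.5 and 248.1 CPM in the control and 199.1, 200.6 and 203.9 CPM in SAFB KD. Kif11 fell by 0.28 (SE 0.031, adjusted p = 6.77e-10), with a gap between the groups. Kif15, which can stand in for Kif11 in keeping the spindle bipolar, fell too, by 0.21 (SE 0.038, adjusted p = 1.52e-05). Kif14, a motor of cytokinesis, was at 38.9, 37.8 and 32.0 CPM in the control and 30.4, 28.1 and 31.1 CPM in SAFB KD. Control replicate 3 lay just above the SAFB KD libraries, and Kif14 fell by 0.28 (SE 0.058, adjusted p = 8.87e-05). Kif22, the chromokinesin KID, rose by 0.13 (adjusted p = 0.0151), but not without control replicate 3 (0.105) or SAFB KD replicate 1 (0.116). The other 5, Kif2c, Kif4, Kif20a, Kif20b and Kif23, ranged from -0.02 to 0.06 and did not pass the test.

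Of the spindle and cytokinesis genes, Tpx2, Prc1, Hmmr and Ckap2 rose and Aspm fell. Prc1, which bundles the microtubules of the central spindle, was at 203.4, 203.3 and 206.4 CPM in the control and 225.4, 229.6 and 230.4 CPM in SAFB KD. It rose by 0.16 (SE 0.030, adjusted p = 2.10e-05). The spindle protein genes Hmmr and Ckap2 rose by 0.18 and 0.17 (adjusted p = 1.76e-05 and 9.70e-05). Aspm, which focuses spindle poles, was at 92.5, 98.9 and 98.3 CPM in the control and 76.1, 78.6 and 77.0 CPM in SAFB KD. The groups did not overlap, and Aspm fell by 0.32 (SE 0.036, adjusted p = 9.08e-10). The cytokinesis genes Anln, Ect2 and Racgap1 and the microtubule binder Nusap1 lay between -0.03 and 0.07 and did not pass, although Nusap1 did without control replicate 3 (adjusted p = 0.0327).

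Both genes of mitotic chromosomes fell. Mki67 encodes Ki-67, the proliferation marker that coats mitotic chromosomes and keeps them apart. It was at 597.2, 607.1 and 585.5 CPM in the control and 400.2, 383.5 and 380.0 CPM in SAFB KD. This was the largest change among the 50 genes, a fall by 0.62 on the log2 scale (SE 0.030, 95% interval -0.68 to -0.56, adjusted p = 2.63e-20), or 1.54-fold, and it passed the test beyond 1.2-fold (adjusted p = 4.89e-14). Top2a, the topoisomerase that disentangles sister chromatids, was at 1571, 1590 and 1568 CPM in the control and 1472, 1428 and 1457 CPM in SAFB KD. Top2a fell by only 0.12 (SE 0.027, adjusted p = 0.000347), and the ratio of Mki67 to Top2a went from 0.378 ± 0.00454 to 0.267 ± 0.00568 (SD, n = 3). Like that of Cenpf to Cenpe, this ratio was chosen with the fold changes known and is given without a test.

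Long mRNAs were then compared with short ones, by the longest annotated protein-coding transcript of each gene. The 8 genes with 5000 bases or more held 1 that rose (Mad2l1), 5 that fell (Mki67, Cenpf, Aspm, Kif14 and Top2a) and 2 that did not pass (Cenpe and Kif20b), with a median log2 fold change of -0.20. The 15 genes under 2500 bases held 7 that rose and 2 that fell (Cenpa and Nuf2), with a median of 0.12, and the 27 between these limits 8 that rose and 4 that fell, with a median of 0.033. Long and short genes thus differed by -0.32 in their medians.

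**Figure D2:**
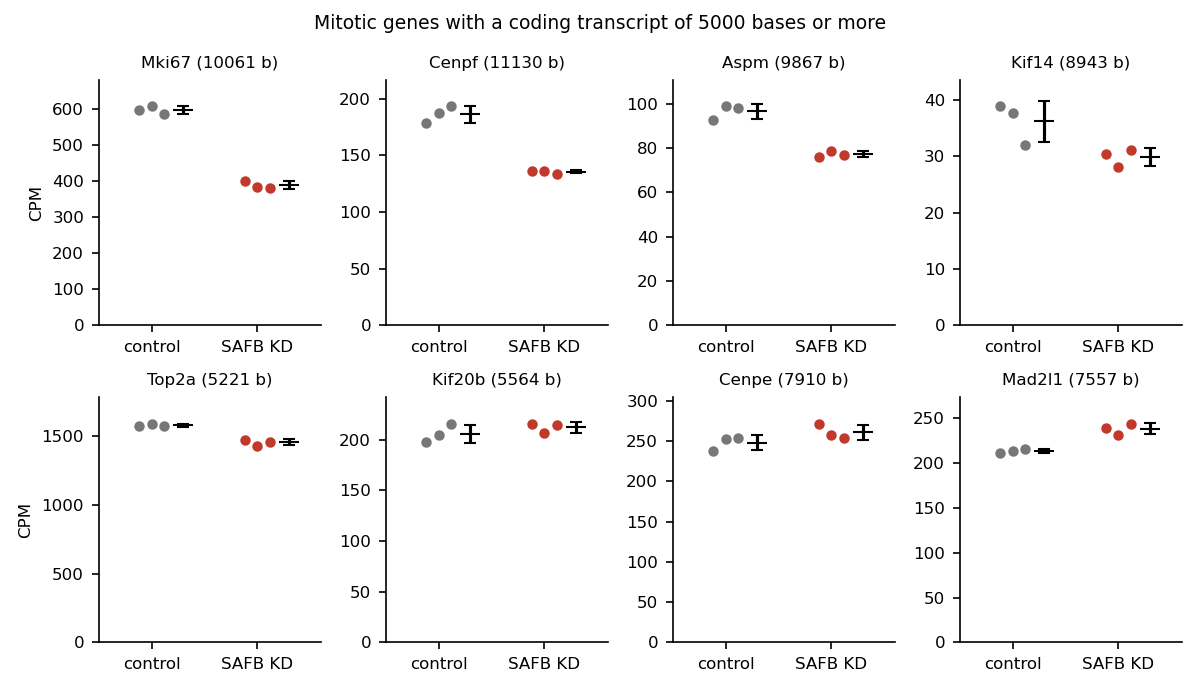
CPM (y axis, from 0) of the 8 genes with a coding transcript of 5000 bases or more in 3 control (grey) and 3 SAFB KD (red) libraries, with the mean and SD in black. Mki67, Cenpf, Aspm, Kif14 and Top2a were lower in all SAFB KD libraries, Kif20b and Cenpe overlapped, and Mad2l1 was higher.

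Single libraries were compared by the deviation of each gene from its mean over all 6 libraries. The median for the 8 long genes was 0.077, 0.133 and 0.048 in the control libraries and -0.076, -0.109 and -0.066 in SAFB KD. For the short genes it was -0.027, -0.040 and -0.079 in the control, and 0.035, 0.021 and 0.070 in SAFB KD. Long genes thus lay above short ones in every control library and below them in every SAFB KD library. Since each mean covers both groups, the values of the groups mirror each other. The pattern was not particular to mitotic genes. Of 2799 tested coding genes of the long class 43.8% were lower and 18.4% higher (median -0.10), and of 4996 in the short class 14.4% were lower and 33.6% higher (median 0.092). Across the 50 genes log2 fold change had a Spearman rho of -0.36 with transcript length and of -0.44 with the length of the coding sequence. Across coding genes the values were -0.21 (n = 13506) and -0.17 (n = 13492). Genes are not independent replicates and share the 6 libraries, so that these are descriptions. With length taken as the sum of all annotated exons, the difference of medians was smaller, at -0.096. By that length only Ccnb2, Cdc20, Pttg1 and Plk1 were under 2500 bases, and the rho across the 50 genes was -0.39. Between the upper and the lower tertile of transcript length the difference was -0.17.

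**Figure D3:**
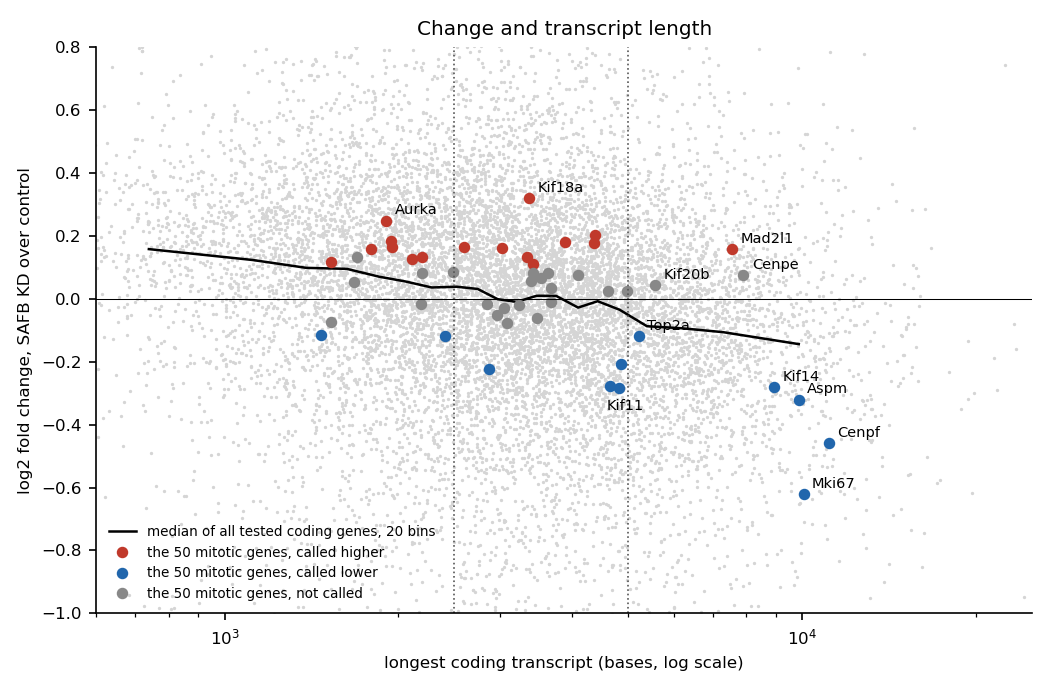
Log2 fold change (y axis, shown from -1 to 0.8) against the longest coding transcript (x axis, bases, log scale) for all tested coding genes (grey, with the median of 20 bins as a line) and the 50 mitotic genes (coloured by call), with limits of 2500 and 5000 bases dotted. Mki67 (10061 bases), Cenpf (11130), Aspm (9867) and Kif14 (8943) lie below the line, and Mad2l1 (7557) and Cenpe (7910) above it.

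The 3 long genes that fell most, Mki67, Cenpf and Aspm, each had a very large coding exon, and a split by this exon was added after seeing these values. Across all 50 genes the longest coding exon followed log2 fold change less closely than length did, with a rho of -0.29, and across coding genes its rho was -0.14. The coding sequence of Mki67 has an exon of 6836 bases (GRCm38, chr7:135694232-135701067, minus strand), out of 9531 coding bases in all. Aspm has one of 3795 bases (chr1:139477346-139481140, plus strand) and Cenpf one of 3428 bases (chr1:189656645-189660072, minus strand). By contrast the longest coding exon is 315 bases in Cenpe, 232 in Top2a and 170 in Mad2l1, whose long transcript is mostly untranslated (coding sequence of 615 bases). Of the 6 genes with a coding exon of at least 1000 bases, namely Mki67, Aspm, Cenpf, Kif20b (1234), Kif14 (1217) and Foxm1 (1187), 5 fell, 0 rose and Kif20b did not pass (0.04, adjusted p = 0.309). Their median was -0.30. Of the other 44 genes, 16 rose, 6 fell and 22 did not pass, with a median of 0.074.

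Coding genes in general showed the same order. Of 1972 with a coding exon of 1000 bases or more, 38.9% were lower and 16.4% higher (median -0.12), and of 11520 without one 23.5% were lower and 29.5% higher (median 0.026). Among 266 with an exon of at least 2500 bases, 61.3% were lower and 11.7% higher. Among coding sequences of 4000 bases or more, 59.6% of 458 genes with a large exon were lower against 35.4% of 537 without. In this range the mitotic genes with a large exon had a median of -0.32 (5 genes), and Cenpe, Kif15 and Top2a, without one, had a median of -0.12. Coding length was not matched between these sides, so that exon size and length cannot be told apart here. Whole-gene counts do not separate exons, so whether the exon itself was spliced differently was not measured.

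**Figure D4:**
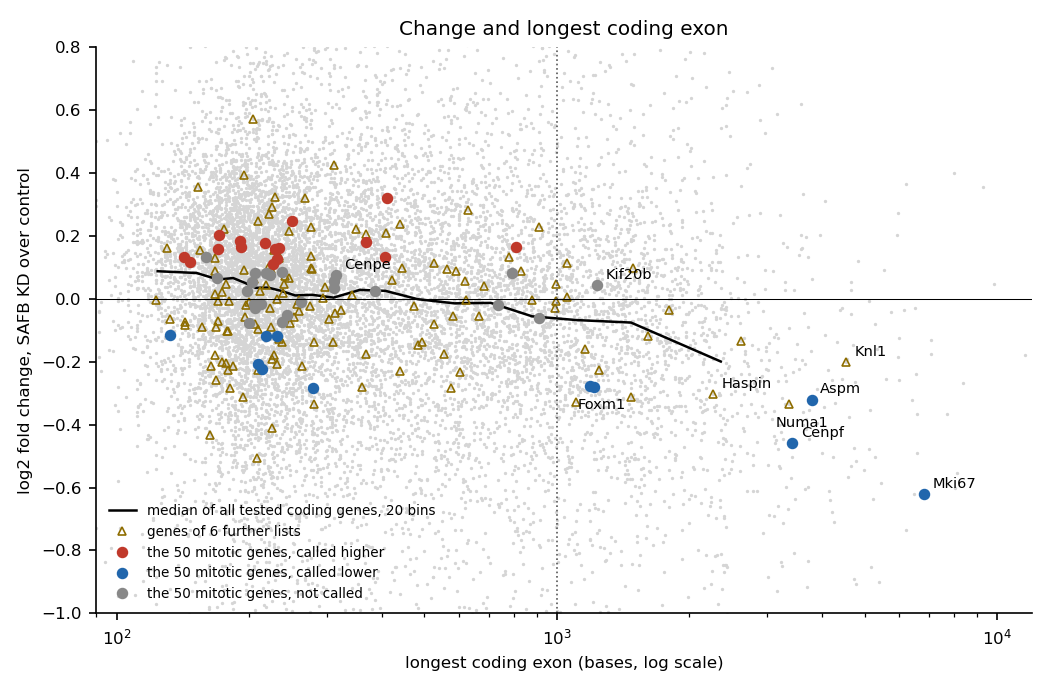
Log2 fold change (y axis, shown from -1 to 0.8) against the longest coding exon (x axis, bases, log scale) for all tested coding genes (grey, medians of 20 bins as a line), the 50 mitotic genes (coloured by call) and 134 genes of 6 further lists (open triangles), with a limit of 1000 bases dotted. Of the 6 coloured genes beyond the limit, 5 fell, and Mki67, with the longest exon, fell most. The falls of Mki67, Cenpf and Aspm were known when the split was added.

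Base composition did not follow the changes among the 50 genes. Their coding sequences were richer in A than those of coding genes (median 30.4% against 25.5%), but the share of A had a rho of -0.085 with log2 fold change, and copies of GAAGAAGA per kilobase, searched on the coding strand alone, had a rho of 0.083. Mean CPM had a rho of -0.11.

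In 6 further lists, 5 of the mitotic machinery and 1 of the DREAM, E2F and RB regulators of its transcription, 134 genes were tested. Of these, 32 were higher, 43 lower and 59 did not pass (median -0.018), beside 21.4% higher and 20.1% lower of all tested genes. Of coding genes within the range of mean CPM of the 50 mitotic genes, 37.2% were higher and 29.8% lower. More of the 134 genes fell than rose, whereas more of the 50 genes rose than fell, a contrast that was not tested. With scaling to total counts alone, the 50 genes held 12 higher and 14 lower. Of the 13 among the 134 genes with a coding exon of at least 1000 bases, 9 fell and 2 rose (median -0.16). Of the other 121, 34 fell and 30 rose (median -0.0072). The 9 with a large exon that fell include Knl1, the kinetochore scaffold (exon of 4533 bases), from 152 ± 6.37 to 132 ± 2.80 CPM (SD, n = 3, -0.20, adjusted p = 4.14e-06), and Numa1, which anchors spindle poles (3360 bases), by 0.33 (adjusted p = 5.21e-11). Hjurp, the chaperone that loads the histone CENP-A (1475 bases), fell by 0.31, and the mitotic entry kinase Mastl (1107 bases) by 0.33 and the histone kinase Haspin (2262 bases) by 0.30. Espl1 (separase) and Arhgap11a, named after their values were seen, rose by 0.11 and 0.10 despite coding exons of 1056 and 1487 bases.

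By list, the counts stand beside 27.6% higher and 25.7% lower of tested coding genes. The centromere and kinetochore genes outside the 50 had 5 higher and 11 lower of 34, among them Mad1l1, which recruits MAD2 (-0.51), and Cdca8 (borealin, 0.35). The spindle and cytokinesis list had 12 higher and 9 lower of 30, with Haus2 of the augmin complex rising from 52.99 ± 1.66 to 78.8 ± 1.39 CPM (0.57, adjusted p = 1.09e-15), the abscission gene Cep55 by 0.43 and gamma-tubulin Tubg1 by 0.39. Cohesin and condensin had 6 in each direction of 19 (Ncapg 0.32, Pds5b -0.23, Ncapd2 -0.19, Ncaph2 0.16). Of 16 APC/C genes 3 were higher (Anapc4 by 0.27, Anapc7 by 0.29) and 5 lower (Anapc5 -0.23, Cdc26 -0.20). Of the 16 genes in the list of mitotic entry, most of them phosphatases and kinases, 2 were higher (Ppp2r2a, 0.23) and 7 lower (Arpp19, -0.26).

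Genes of G1, of S phase and of cell cycle transcription also moved in both directions. The counts stand beside 21.4% higher and 20.1% lower of all tested genes, and 27.6% and 25.7% of tested coding genes. Ccnd3, a D-type cyclin of G1, was the largest change of its list, from 64.9 ± 1.71 to 38.0 ± 0.637 CPM (SD, n = 3; -0.77, adjusted p = 1.54e-18). Ccnd1 rose by 0.29, and Cdk2 and Ccnd2 fell by 0.28 and 0.16, making 1 higher and 3 lower of 8. Cdkn1a, which encodes the CDK inhibitor p21, rose from 106 ± 3.69 to 143 ± 0.906 CPM (0.43, adjusted p = 6.63e-14), whereas Cdkn2c fell by 0.27, Cdkn1b and Cdkn2d did not pass, and Cdkn1c, Cdkn2a and Cdkn2b had no count in any library. Of the 19 tested regulators of the DREAM, E2F and RB group, which are among the 134 above, 4 were higher (E2f5, 0.32) and 5 lower (Tfdp2 -0.41, Rbl2 -0.33, Rbl1 -0.21). Of 40 DNA replication genes, which peak in S phase, 9 were higher and 13 lower (median -0.0048). Log2 fold changes ran from -0.45 to 0.32, with 20 above and 20 below 0. The 4 with the smallest adjusted p all fell: Tk1 (-0.41), Dtl (-0.45), Uhrf1 (-0.30) and Fen1 (-0.36).

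**Figure D5:**
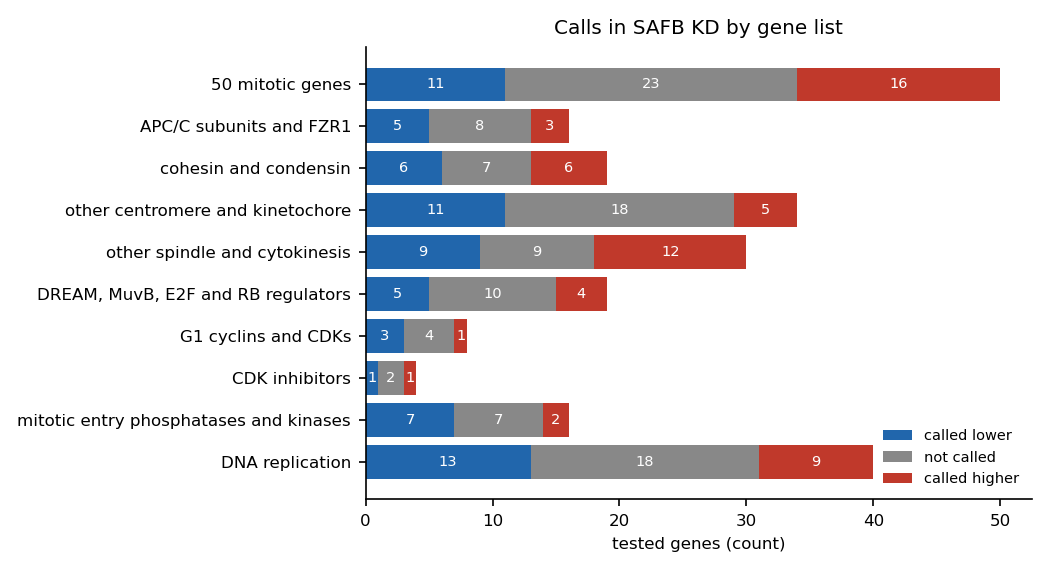
Tested genes (x axis, count) called lower (blue), not called (grey) and called higher (red) in SAFB KD at adjusted p under 0.05, for the 50 mitotic genes and 9 further lists (y axis). Each list holds calls in both directions, with 16 higher and 11 lower among the 50 mitotic genes.

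Neighbouring genes were examined where they could share reads. In 4 of the 50 genes another tested gene lies on the same strand, and none of those 4 neighbours was called. Same-strand genes that did not enter the test include processed pseudogenes within Kif11 (AC137605.4) and Kif14 (Gm29485 and Gm29486), both of which fell. Whether these pseudogenes bear on the falls was not tested. On the opposite strand 11 genes overlap 1 tested gene each, of which Exosc9 beside Ccna2 (0.30), Rccd1 beside Prc1 (0.60) and Cdc23 beside Kif20a (-0.10) passed the test. The libraries kept strand. In 4 cases a pseudogene is named after the gene, and shared reads could then be split or lost.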

How the data were processed

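Whole-number counts of reads per gene were deposited for 6 libraries, 1 file each, with no normalization. Per the study's methods and the submitters' processing notes, the authors made stranded poly(A)+ libraries, aligned reads to GRCm38 with STAR 2.7.9a and counted genes with a GENCODE mouse annotation. That the count column is the reverse-stranded one was inferred, since each file holds 1 column. Of 54532 identifiers 54495 matched GENCODE mouse release 21 (GRCm38), which gave symbols, lengths, exons and coordinates. No library pair was identical, and replicates of a group differed by more than sampling noise. They are biological replicates by the study's design, but nothing says how the cultures were separated.

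Counts were tested in edgeR 4.0.16 (R 4.3.3), with the quasi-likelihood test, TMM factors, at least 10 reads summed over the libraries (35080 genes removed, 26546 of them with no read) and Benjamini-Hochberg adjustment over 19452 genes. A gene is called at adjusted p under 0.05, two-sided. CPM are TMM-scaled, errors are SD over 3 libraries, and fold changes are log2 of SAFB KD over control. Changes beyond 1.2-fold were tested with glmTreat. Alternatives were other scaling factors, DESeq2 1.42.0, limma-voom 3.58.1, other count filters, the replicate number as a block, each library left out, and other definitions of length. The steps were tested on simulated data. The mitotic genes, the further lists and the split by coding exon were chosen with earlier results of these data known, and no list was tested as a set. All 50 genes could be named, and of each other list up to 4 genes with the smallest adjusted p, Cdkn1a and the knockdown targets. Genes outside this are said to be chosen after their values were seen.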

Additional observations from a re-analysis of the deposited data

How the results depend on the processing

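Under the 14 alternative fits no called mitotic gene changed direction, and 20 of the 27 calls (11 higher, 9 lower) were kept in all of them. The 7 others (Cdc25c, Plk1, Bub1, Spc25, Kif22, Cenpa and Nuf2) were lost in at least 1, and 8 genes gained a call in at least 1. Scaling to total counts alone lowered the median log2 fold change to 0.0141 and that of all tested genes to -0.030, and took away the calls of Plk1, Bub1, Spc25 and Kif22. This scaling leaves out the TMM factors, which shifts all genes alike. Without 1 library, 13 to 16 mitotic genes were higher, 9 to 11 lower, 0 higher and 2 to 3 lower beyond 1.2-fold, the median was 0.026 to 0.067, and the difference of long and short genes -0.320 to -0.254. This difference was -0.0963 by summed exon length, -0.168 between tertiles of transcript length and -0.136 between tertiles of coding sequence, which place other genes in the classes. The difference by coding exon was -0.395 to -0.364. With the replicate number as a block, 18 genes were higher and 11 lower, the median was 0.054 and the difference of long and short genes -0.309. Whether the numbers pair the samples could not be settled. Same-numbered libraries correlated at 0.051, 0.012 and -0.0019 in their deviations, and 0.051 was the highest value of any pair. Control replicate 3, however, correlated best with SAFB KD replicate 2 (0.026). Values this near 0 from 3 libraries a group cannot exclude a pairing. With 3 libraries a group and 1 cell line, small changes rest on few samples.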
